A study of Mus musculus with 17 samples.

Results

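Transcripts of 10 genes widely used as readouts of YAP and TAZ activity were followed across surfaces: Ankrd1, Ccdc80, F3, Tgfb2, Axl, Crim1, Amotl2, Lats2, Ajuba and Ptpn14. They were chosen by name as known targets, with earlier results of these data in view, and all 10 were found among the 56748 genes of the count table. The cells were E11, a line of mouse podocytes, the epithelial cells that cover the capillaries of the kidney glomerulus, grown on silicone (polydimethylsiloxane, PDMS). High fractal topography (HF, 6 libraries) was modelled on tracings of healthy glomeruli, round topography (RT, 6 libraries) was textured but not fractal, and the surface with no topography (NT, 5 libraries) was flat. Every group was the same single line on the same polymer, and no treatment, genotype or time is given that would separate the groups in any other way. The labels number the replicates but do not say whether they are separate cultures, so the p-values cover variation from library to library, which may be technical only.

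YAP and TAZ are transcriptional coactivators that carry no DNA-binding domain of their own and act through the TEAD transcription factors. The Hippo kinases, ending in LATS1 and LATS2, phosphorylate them and hold them in the cytoplasm, while cell spreading, stiff substrates and actin tension favour their entry into the nucleus. In podocytes, YAP is known for a role in cell survival, and its targets are often read as a record of what a cell senses of its substrate. Several targets, among them Lats2, Amotl2, Ajuba and Ptpn14, are themselves parts of the Hippo pathway.

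Total counts ran from 16.2 to 17.8 M in HF, 15.7 to 24.1 M in RT and 14.9 to 18.6 M in NT. Of the podocyte markers, Wt1 lay between 93.8 and 117 CPM (counts scaled to a common library total) in all libraries and Synpo between 243 and 308 CPM, while Nphs1 (nephrin, of the slit diaphragm) reached 6.42 CPM at most. The tubular gene Cdh16 lay between 922 and 1029.8 CPM in the same libraries. Of the other tubular markers, Lrp2 was also high, at 269.9 to 484 CPM. Cubn reached 7.55 CPM at most, Slc12a1 4.75 CPM, Slc12a3 0.449 CPM and Umod 0.119 CPM, and Slc34a1 and Aqp2 were at 0 in every library. Nphs1, a defining gene of mature podocytes, was thus low beside Cdh16, while most tubular markers were low or absent too, so the cells are called E11 cells here. All 10 YAP and TAZ targets passed the filter on low counts.

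Promoters of the targets were read because TEAD factors bind a short core, GGAATG, which reads CATTCC on the other strand. RefSeq promoter windows (build GRCm38.p6, 250 bases before to 50 bases after a transcript start) were found for 9 of the 10 genes, Ccdc80 being the one without, in 10 windows because Lats2 has 2 starts. The core occurred in 7 of the 10 windows (70%), those of Ankrd1, Ajuba, Amotl2, Axl, Crim1, Ptpn14 and 1 start of Lats2, against 14.7% of all 32851 windows. Tgfb2 and F3 had none in these windows. These genes are known as YAP and TAZ targets, so the share is a description of the list and not a test of it. Shown here are the windows of Ankrd1 (chr19:36119795-36120094, minus strand) and Ajuba (chr14:54577612-54577911, minus strand), which hold the core at 2 places each and changed between surfaces, and of Amotl2 (chr9:102717554-102717853, plus strand), which holds it once and did not pass between surfaces. Each is written 5′ to 3′ on the gene's own strand, with the core in capitals.
Ankrd1: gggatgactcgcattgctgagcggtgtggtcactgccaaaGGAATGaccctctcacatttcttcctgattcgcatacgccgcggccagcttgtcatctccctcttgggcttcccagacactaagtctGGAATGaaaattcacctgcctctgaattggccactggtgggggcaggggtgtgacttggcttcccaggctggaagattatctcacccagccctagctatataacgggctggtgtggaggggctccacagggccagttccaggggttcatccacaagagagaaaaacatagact
Ajuba: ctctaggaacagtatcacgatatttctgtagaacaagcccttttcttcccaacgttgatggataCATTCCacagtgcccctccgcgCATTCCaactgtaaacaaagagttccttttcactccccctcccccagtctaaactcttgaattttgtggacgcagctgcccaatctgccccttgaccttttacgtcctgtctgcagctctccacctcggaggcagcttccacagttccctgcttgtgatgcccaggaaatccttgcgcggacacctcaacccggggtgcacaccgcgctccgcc
Amotl2: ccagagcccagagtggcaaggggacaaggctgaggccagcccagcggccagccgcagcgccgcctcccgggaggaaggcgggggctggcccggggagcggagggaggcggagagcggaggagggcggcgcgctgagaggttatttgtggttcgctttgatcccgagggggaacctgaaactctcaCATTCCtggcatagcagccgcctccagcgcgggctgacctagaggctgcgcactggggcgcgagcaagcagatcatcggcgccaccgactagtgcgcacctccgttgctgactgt

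In Ankrd1 the cores began 210 and 123 bases before the start, both as GGAATG. In Ajuba they began 186 and 164 bases before it, both as CATTCC, and in Amotl2 65 bases before it, as CATTCC. For comparison, the AP-1 motif TGANTCA, searched on both strands, occurred in 1 of the 10 windows (10%), that of F3, against 7.81% of all windows. The CArG box, the element of serum response factor, occurred in 0 of 10 against 1.63%. Among the other YAP and TAZ signature genes, the TEAD core stood in 1 of 8 windows, that of Ccn1. A match is a string of letters and shows no binding.

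**Figure D1:**
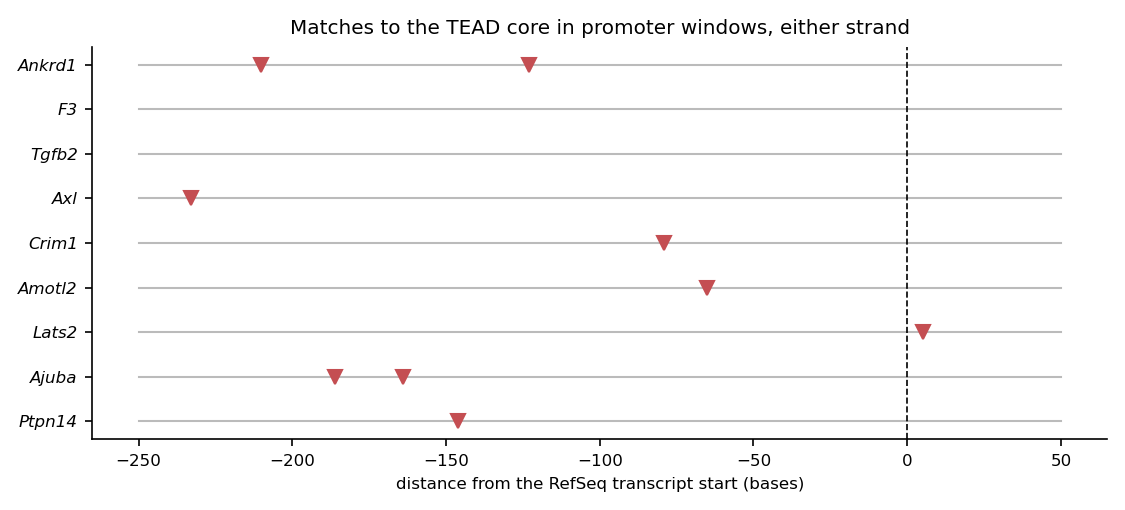
Places of the TEAD core in the promoter windows of 9 YAP and TAZ target genes. The horizontal axis is the distance in bases from the RefSeq transcript start (dashed line), grey lines are the windows of 300 bases, and triangles mark the first base of each match on either strand. Both starts of Lats2 share a row. Ankrd1 and Ajuba hold 2 matches each, and F3 and Tgfb2 hold none.

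Ccdc80, F3 and Tgfb2 rose on both textures, Ankrd1 and Ajuba passed on RT against NT, and Axl, Crim1, Amotl2, Lats2 and Ptpn14 passed in no comparison. On HF against NT, 3 of the 10 rose (Ccdc80, F3 and Tgfb2) and 0 fell, where 1.50% of all 15196 genes tested rose and 0.829% fell. On RT against NT, 5 of 10 rose (the same 3 with Ankrd1 and Ajuba) and 0 fell, where 2.53% of all genes rose and 1.44% fell. The 2 comparisons share the NT libraries. On HF against RT, 0 of 10 passed by edgeR, by DESeq2 or by limma voom, where 0.211% of all genes passed by edgeR, and 3 of 10 had an unadjusted p under 0.05, all lower on HF. Over all 15196 genes tested, 648 were lower and 568 higher on HF at that unadjusted p. The median log2 fold change of the targets was 0.06 on HF and 0.10 on RT, each against NT, and -0.04 between HF and RT, beside -0.0025, -0.0021 and -0.0007 over all genes tested. Those that passed were between 1.10-fold and 1.29-fold higher. In bulk RNA, fewer cells of a type and less RNA per cell cannot be told apart.

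**Figure D2:**
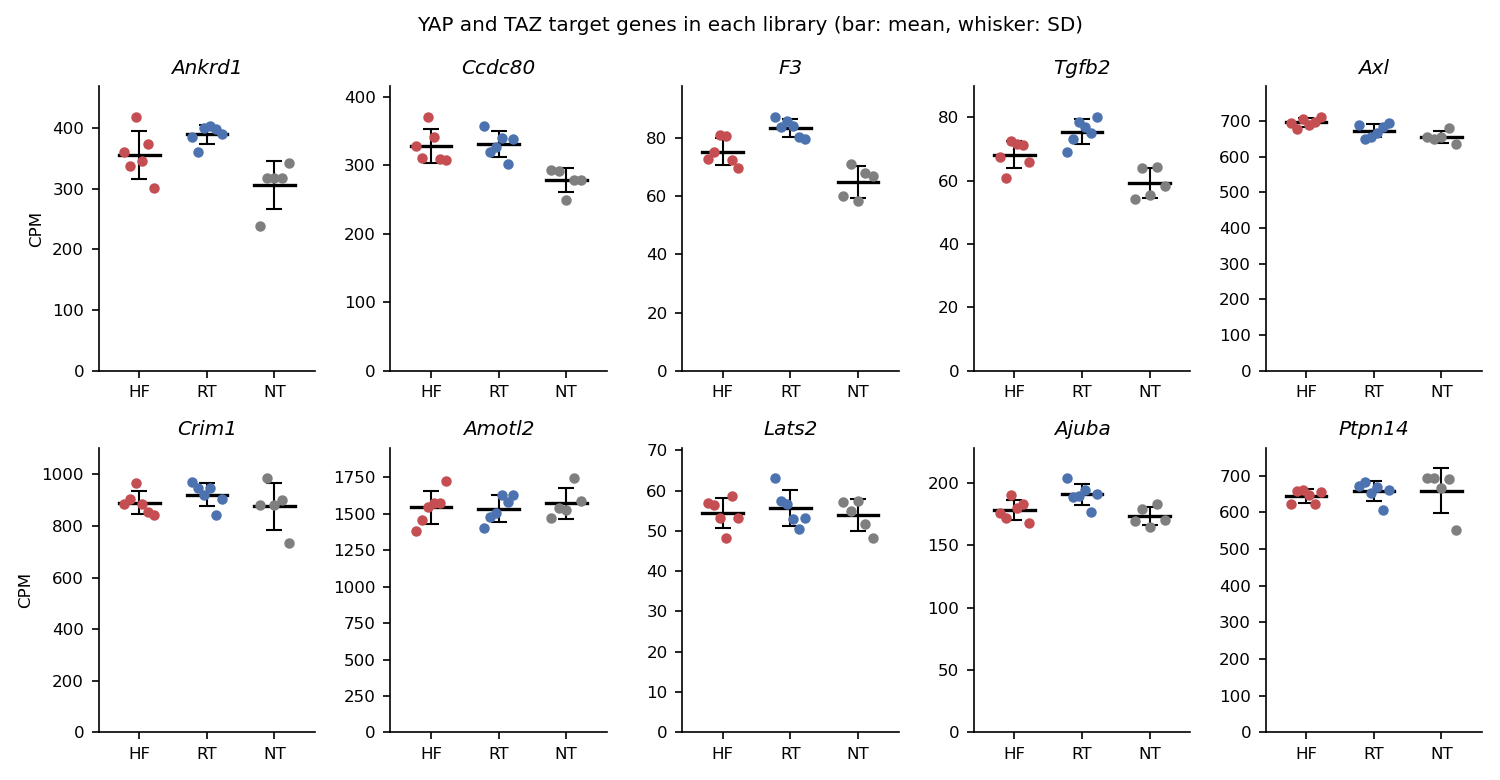
CPM of the 10 YAP and TAZ target genes in every library on HF, RT and NT, on axes that start at 0. Points are libraries, thick bars are group means and whiskers are the SD (n = 6, 6 and 5). F3, Tgfb2, Ccdc80 and Ankrd1 are higher on RT than on NT with no overlap of libraries, while Amotl2, Lats2, Crim1 and Ptpn14 overlap between all surfaces.

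F3 is tissue factor, the membrane receptor that starts blood coagulation. It lay between 69.7 and 81.0 CPM on HF, with a median of 73.8 CPM, and between 79.6 and 87.2 CPM on RT, with a median of 83.7 CPM. On NT it stood at 59.8, 70.9, 58.1, 67.7 and 66.9 CPM in libraries 1 to 5. Every RT library was above every NT library, and HF lay in between. HF 6 was below the highest NT library, and HF 3 and HF 4 were above the lowest RT libraries.

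F3 rose on HF against NT by a log2 fold change of 0.22 ± 0.05 (standard error, adjusted p = 0.00885) and on RT against NT by 0.37 ± 0.05 (standard error, adjusted p = 8.85e-06). Without NT 3, its lowest library, the HF value was 0.18 and missed the threshold (adjusted p = 0.0518). Directly between the textures, F3 had a mean of 75.2 ± 4.63 CPM on HF, against 83.3 ± 3.03 CPM on RT (SD, n = 6 each). The log2 fold change was -0.15 ± 0.05 (standard error), and its unadjusted p of 0.00242 did not pass adjustment (0.217).

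Tgfb2 encodes transforming growth factor beta 2, a secreted ligand that drives matrix production. It ran from 60.9 to 72.5 CPM on HF (median 69.3 CPM) and from 69.0 to 80.2 CPM on RT (median 76.0 CPM), against 54.1, 64.1, 55.6, 64.2 and 58.3 CPM in the NT libraries. As for F3, RT lay wholly above NT and HF stood between, overlapping both. Tgfb2 rose by 0.35 ± 0.05 on RT against NT (log2 fold change, standard error, adjusted p = 3.18e-05) and by 0.20 ± 0.05 on HF against NT (standard error, adjusted p = 0.0236). Removing any 1 of NT 1, NT 3, HF 3, HF 4 and HF 5 ended the HF call (adjusted p from 0.0558 to 0.0868), as did a fit of HF and NT alone (adjusted p = 0.0531). Between HF and RT the log2 fold change was -0.15 ± 0.05 (standard error, unadjusted p = 0.00367, adjusted p = 0.258).

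Ccdc80, a secreted protein of the extracellular matrix, had means of 328 ± 24.9 CPM in the HF libraries and 330.3 ± 18.9 CPM in the RT libraries (SD, n = 6 each). It lay between 308 and 371 CPM on HF (median 319 CPM) and between 302 and 357 CPM on RT (median 332 CPM), against 293, 292, 249, 279 and 278 CPM on NT. All libraries of both textures were above all NT libraries, which on HF against NT 1.25% of all genes tested did in the upward direction, and on RT against NT 2.18%. Ccdc80 rose by 0.24 ± 0.05 on HF against NT (log2 fold change, standard error, adjusted p = 0.00927) and by 0.25 ± 0.05 on RT against NT (standard error, adjusted p = 0.00398). Both calls held when any single library was left out. Between HF and RT its log2 fold change was -0.01, with an interval of 2 SE from -0.11 to 0.08.

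Axl and Crim1, the other surface proteins, did not pass. Axl is the receptor tyrosine kinase for the ligand GAS6. It averaged 695 ± 12.7 CPM on HF (SD, n = 6), 672 ± 17.8 CPM on RT (SD, n = 6) and 655 ± 16.2 CPM on NT (SD, n = 5), so it was narrow within each surface. HF against NT gave a log2 fold change of 0.09 ± 0.03 (standard error, adjusted p = 0.150), with the lowest HF library at 676 CPM and the highest NT library at 680.0 CPM. DESeq2 called it at the same size (adjusted p = 0.0115). Axl is the member whose mean was highest on HF, while for F3, Tgfb2 and Ankrd1 the highest mean was on RT.

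Crim1 encodes a transmembrane protein that binds growth factors and is known from podocytes. It averaged 890.2 ± 43.7 CPM on HF (SD, n = 6), 921 ± 45.2 CPM on RT (SD, n = 6) and 876 ± 91.1 CPM on NT (SD, n = 5). The wide NT spread came with 1 library, NT 5, at 733 CPM, the other 4 lying between 879.6 and 986 CPM. Its log2 fold change was 0.02 for HF against NT (interval of 2 SE from -0.08 to 0.13) and 0.07 for RT against NT (from -0.03 to 0.18).

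Ankrd1, an ankyrin repeat protein that binds the muscle protein titin and acts in the nucleus as a cofactor, is among the targets read most often. It ran from 301 to 419 CPM on HF (median 352 CPM) and from 361 to 404 CPM on RT (median 395 CPM), against 238, 318, 317, 317 and 342 CPM on NT. RT was narrow and wholly above NT, whereas HF spread from below most NT libraries to above all RT libraries. Ankrd1 rose on RT against NT by 0.35 ± 0.09 (log2 fold change, standard error, adjusted p = 0.0381). That call was lost without any 1 of 9 libraries (NT 2, NT 3, NT 4, RT 1, RT 3, RT 4, RT 5, RT 6 and HF 1, adjusted p from 0.0503 to 0.0787), at log2 fold changes of 0.34 to 0.36, and with no filter beyond 1 count (adjusted p = 0.0597). HF against NT gave 0.22 ± 0.09 (standard error, adjusted p = 0.259) and HF against RT -0.13 ± 0.08 (standard error, adjusted p = 0.766).

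Of the 4 members that are parts of the Hippo pathway, Ajuba passed in 1 comparison and the others in none. Ajuba, a LIM protein of cell junctions that binds LATS kinases, ran from 168 to 190.3 CPM on HF (median 178 CPM) and from 177 to 204 CPM on RT (median 191 CPM), against 169.9, 179, 165, 183 and 170.3 CPM on NT. It rose on RT against NT by 0.14 ± 0.04 (log2 fold change, standard error, adjusted p = 0.0296), with overlap of 1 RT library, RT 5, with NT. The call ended without NT 1, NT 3, RT 1, RT 3, RT 4 or RT 6 (adjusted p from 0.0505 to 0.109). HF against NT gave 0.04 ± 0.04 (standard error, adjusted p = 0.693), and HF against RT -0.10 ± 0.04 (standard error, unadjusted p = 0.0102, adjusted p = 0.380).

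Lats2, the kinase that phosphorylates YAP and TAZ, averaged 54.4 ± 3.70 CPM on HF (SD, n = 6), 55.7 ± 4.45 CPM on RT (SD, n = 6) and 53.9 ± 3.89 CPM on NT (SD, n = 5). Its log2 fold change was 0.01 for HF against NT (interval of 2 SE from -0.10 to 0.12) and 0.04 for RT against NT (from -0.07 to 0.15). In GENCODE M21, 42.4% of its exonic bases are shared with Gm49361 on the same strand, a gene that has 0 counts in all 17 libraries here, so its level may depend on how shared reads were counted. Ptpn14, a phosphatase that binds YAP and restrains it, averaged 645 ± 18.1 CPM on HF (SD, n = 6), 658 ± 27.0 CPM on RT (SD, n = 6) and 659 ± 61.6 CPM on NT (SD, n = 5). As for Crim1, NT 5 stood lowest, at 551 CPM, and the other NT libraries lay between 666 and 694 CPM. The intervals for Ptpn14 ran from -0.12 to 0.06 for HF against NT and from -0.09 to 0.09 for RT against NT.

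**Figure D3:**
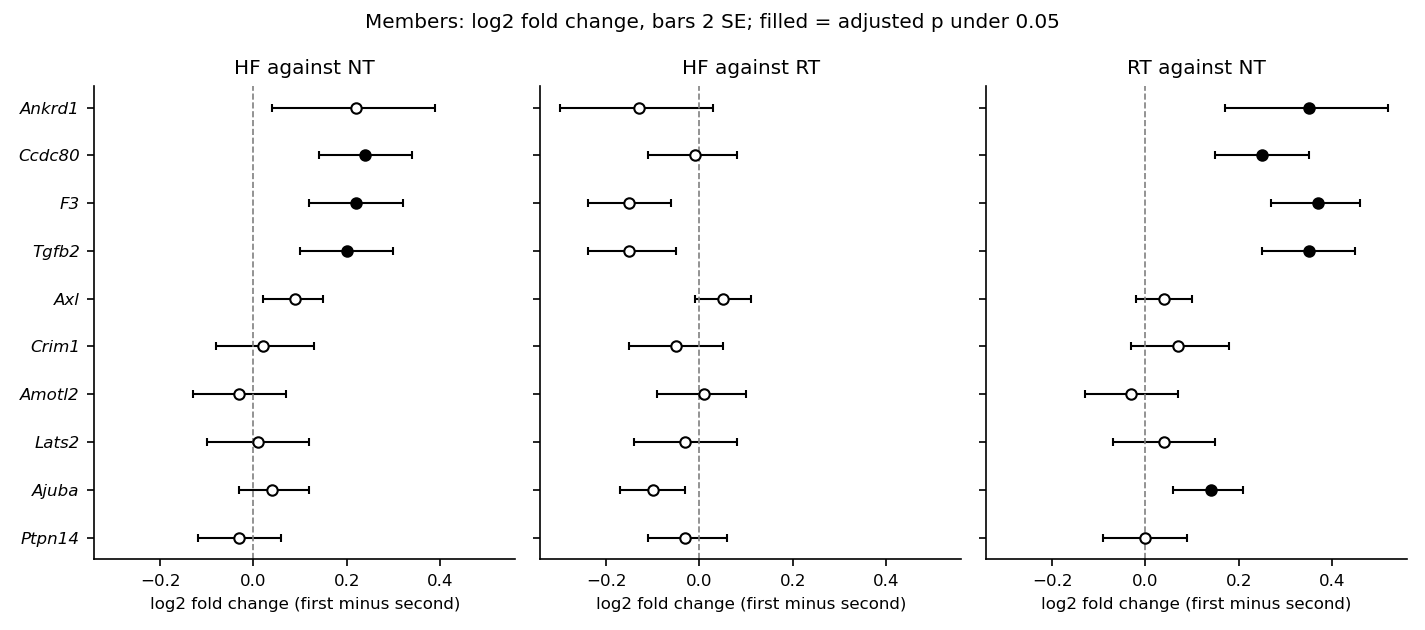
Log2 fold changes of the 10 YAP and TAZ target genes in the 3 comparisons, the first named surface minus the second. Points are edgeR estimates, bars reach 2 SE to either side and filled points have an adjusted p under 0.05. Ccdc80, F3 and Tgfb2 are filled for HF against NT, none is filled for HF against RT, and Ankrd1, Ccdc80, F3, Tgfb2 and Ajuba are filled for RT against NT.

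Amotl2, an angiomotin family protein that holds YAP at junctions and the actin cytoskeleton, differed between replicate numbers and did not pass between surfaces. It averaged 1543 ± 116 CPM on HF (SD, n = 6), 1536 ± 90.8 CPM on RT (SD, n = 6) and 1572 ± 105 CPM on NT (SD, n = 5), with intervals of the log2 fold change from -0.13 to 0.07 for HF against NT and from -0.13 to 0.07 for RT against NT. The libraries numbered 1 held 1383 CPM on HF, 1402 CPM on RT and 1469 CPM on NT, the lowest of each surface. Those numbered 6 held 1724 CPM on HF and 1628 CPM on RT, the highest of each, and in NT, which has no number 6, number 4 was highest at 1745 CPM.

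An edgeR test of all number terms beside the surface gave an adjusted p of 0.00417 for Amotl2, where 1.22% of all genes tested passed, and the numbers took 88.4% of its variance within surfaces (the median over all genes tested was 40.1%). With only the libraries numbered 1 to 5 it also passed (adjusted p = 0.0258), as with limma voom (adjusted p = 0.00119). Amotl2 was 1 of 10 members called. Crim1 and Ptpn14 came next (adjusted p = 0.0585 and 0.0924), with 66.9% and 68.6% of their variance within surfaces. What a number stands for is not stated. On RT the total counts rose with the number, from 15.7 M in RT 1 to 24.1 M in RT 6, while on HF and NT they did not. The part of depth was not tested. By contrast 76.7% of the variance of F3, 72.3% of that of Tgfb2 and 62.1% of that of Ccdc80 lay between surfaces, against 2.56% for Amotl2 and a median of 14.0% over all genes tested.

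**Figure D4:**
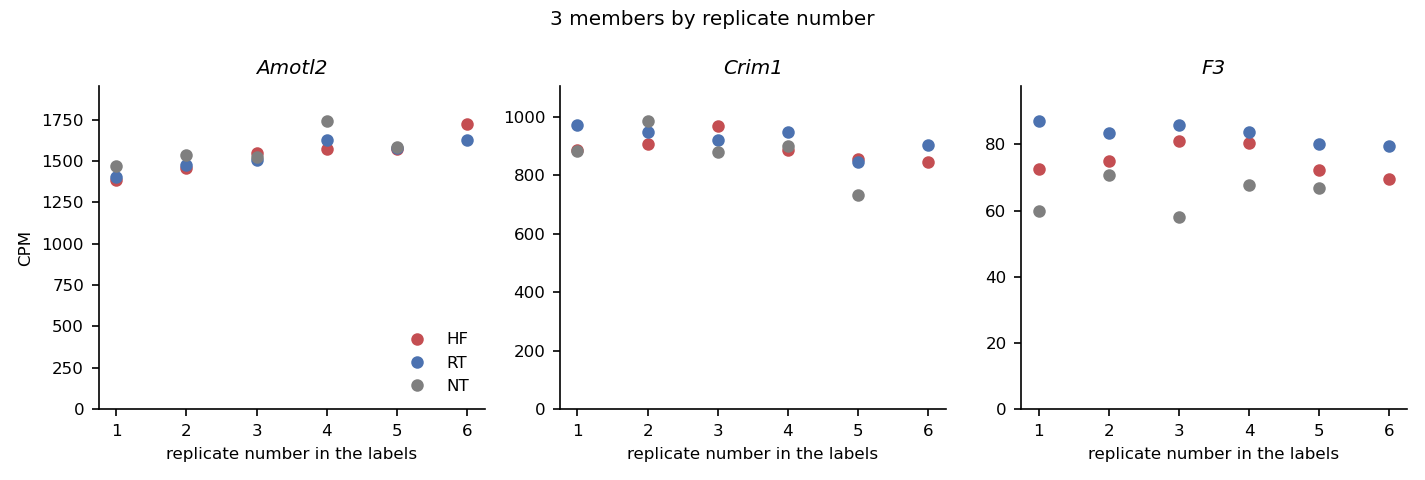
CPM of Amotl2, Crim1 and F3 against the replicate number in the labels, with HF, RT and NT in separate colours and axes that start at 0. Each point is a library, and NT has no number 6. For Amotl2 the surfaces overlie each other and the numbers differ, from 1383 CPM in HF 1 to 1745 CPM in NT 4, while for F3 the RT library is the highest at every number.

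Within a surface, the same libraries tended to stand at the edge for several members. HF 3 was the highest HF library for 7 of 10 members (Ankrd1, Ccdc80, F3, Tgfb2, Ajuba, Crim1 and Ptpn14), and HF 6 the lowest for 5 of 10. On RT, RT 1 was highest for 5 members and RT 5 lowest for 5, and on NT, NT 5 was lowest for 4. How often these libraries stood at the edge over all genes tested was not counted, so the pattern may not be particular to the members. The part that these libraries have in the results was not tested beyond leaving each out.

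Per kilobase of exon, which allows genes to be set side by side, Amotl2 stood highest of the targets on every surface. On HF, Amotl2 was highest at 245 ± 18.4 RPKM (SD, n = 6, as for all values in this paragraph), followed by Crim1 at 148 ± 7.28 RPKM, Axl at 138 ± 2.52 RPKM and Ankrd1 at 123 ± 13.6 RPKM, the last pair being the other way round on RT (Ankrd1 at 135 ± 5.45 RPKM and Axl at 134 ± 3.53 RPKM). Ccdc80 held 76.4 ± 5.80 RPKM. Ajuba at 48.9 ± 2.16 RPKM and Ptpn14 at 48.1 ± 1.35 RPKM did not differ beyond their spread. F3 held 29.7 ± 1.83 RPKM, Tgfb2 11.8 ± 0.756 RPKM and Lats2 7.81 ± 0.531 RPKM. The value of Lats2 is taken over its full exonic length, of which 42.4% is shared with Gm49361, so its place below Tgfb2 is uncertain.

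Few of the other genes of a YAP and TAZ signature passed, and those that did were higher on a texture than on NT. Of 13, 12 were tested, since Igfbp3 was at 0 in every library. On HF against NT 1 rose and 0 fell, beside 1.50% and 0.829% of all genes tested. On HF against RT 0 passed, beside 0.211%, and on RT against NT 2 rose and 0 fell, beside 2.53% and 1.44%. The medians were 0.04, -0.01 and 0.05 on the log2 scale, beside -0.0025, -0.0007 and -0.0021 over all genes tested. At an unadjusted edgeR p under 0.05, 5 were higher and 1 lower on HF against NT, and 3 higher and 2 lower on RT against NT. Over all genes tested these counts were 1157 and 1008, and 1384 and 1216. Ccn1 (CYR61), a matricellular protein and a target of long standing, ran from 572 to 883 CPM on HF (median 769.6 CPM) and from 628 to 831 CPM on RT (median 760.4 CPM), against 335, 530.2, 460.1, 585 and 596 CPM on NT. It rose on RT against NT by 0.58 ± 0.14 (log2 fold change, standard error, adjusted p = 0.0381), with every RT library above every NT library. That call was lost without any 1 of 10 libraries (NT 1, NT 2, NT 3, RT 2, RT 3, RT 4, RT 5, RT 6, HF 4 and HF 5, adjusted p from 0.0504 to 0.102), with no filter beyond 1 count (adjusted p = 0.0553) and with only RT and NT in the fit (adjusted p = 0.0756).

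For HF against NT, Ccn1 stood at 0.55 ± 0.14 (standard error, adjusted p = 0.0632) and did pass under DESeq2 (adjusted p = 0.00438), limma voom (adjusted p = 0.00559) and, without NT 5 or HF 1, edgeR. Ccn2 (CTGF), its relative, averaged 231 ± 52.3 CPM on HF, 240.4 ± 17.8 CPM on RT and 179 ± 43.0 CPM on NT (SD, n = 6, 6 and 5) and did not pass for HF against NT (adjusted p = 0.337) or RT against NT (adjusted p = 0.202), although limma voom called the second (adjusted p = 0.0391). In GENCODE M21, 23.2% of its exonic bases lie opposite Gm15270, from which non-directional libraries cannot tell it. Fjx1, a secreted kinase-like protein, rose on RT against NT by 0.33 ± 0.08 (standard error, adjusted p = 0.00801). Myof (myoferlin, a membrane repair protein) rose on HF against NT by 0.12 ± 0.03 (standard error, adjusted p = 0.0487), a call kept in 1 of 17 cases when single libraries were left out (adjusted p up to 0.110).

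The transcripts of YAP, TAZ and the TEAD factors themselves did not pass in any comparison. Yap1 averaged 175 ± 5.41 CPM on HF, 173 ± 3.18 CPM on RT and 183 ± 9.84 CPM on NT (SD, n = 6, 6 and 5). Wwtr1, which encodes TAZ, averaged 325 CPM on HF (315 to 330.3 CPM), 343 CPM on RT (334 to 353 CPM) and 322 CPM on NT (285 to 352 CPM). Every HF library of Wwtr1 was below every RT library, as for 0.520% of all genes tested, with a log2 fold change of -0.08 ± 0.04 (standard error, adjusted p = 0.540). For RT against NT its log2 fold change was 0.09 (adjusted p = 0.185), and it passed only when NT 2 was left out (adjusted p = 0.0459). Among the TEAD genes Tead1 was at 282 ± 12.2 CPM on HF and Tead4 at 5.14 ± 0.761 CPM (SD, n = 6 each), and the log2 fold changes of Tead1, Tead2 and Tead3 lay between -0.05 and 0.08 in all comparisons. Tead4 had wide intervals, from -0.47 to 0.09 for HF against NT.

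Of the 9 genes of YAP, TAZ, the TEAD factors and their cofactors, 8 were tested, since Vgll2 had at most 1 count in a library. On HF against NT 2 rose (Vgll3 and Vgll4) and 0 fell, beside 1.50% and 0.829% of all genes tested. On HF against RT 0 passed, beside 0.211%. On RT against NT 1 rose (Vgll3) and 0 fell, beside 2.53% and 1.44%. Vgll3, a vestigial-like protein that binds TEAD, rose on HF against NT by 0.21 ± 0.04 (standard error, adjusted p = 0.00592) and on RT against NT by 0.17 ± 0.04 (standard error, adjusted p = 0.0262). It averaged 79.4 ± 3.55 CPM on HF, 77.0 ± 3.63 CPM on RT and 68.6 ± 4.91 CPM on NT (SD, n = 6, 6 and 5). Without NT 3, NT 4, NT 5, RT 1 or RT 4 the RT call was lost (highest adjusted p = 0.0818). Vgll4, a repressor of TEAD activity, rose on HF against NT by 0.15 ± 0.04 (standard error, adjusted p = 0.0285). All its HF libraries were above all NT libraries, as for 1.25% of all genes tested. Its call was lost without NT 3, NT 5, HF 3, HF 5 or HF 6 (highest adjusted p = 0.0764) and with only HF and NT in the fit (adjusted p = 0.0679).

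Of 24 Hippo kinases and upstream regulators, 23 were tested, and on HF against NT 1 rose and 1 fell, on HF against RT 0 passed and on RT against NT 1 rose and 0 fell. These are few genes, beside shares over all genes tested of 1.50% higher and 0.829% lower, 0.211% in either direction, and 2.53% higher and 1.44% lower. The rise in both was Amot (angiomotin, the relative of Amotl2 that retains YAP), at 325 to 363 CPM on HF and 309 to 348 CPM on RT, against 302, 313, 307, 287 and 261 CPM on NT. Its log2 fold change was 0.24 ± 0.04 for HF against NT (standard error, adjusted p = 0.000738), with no overlap of libraries, and 0.16 ± 0.04 for RT against NT (standard error, adjusted p = 0.0154). Both calls held without any single library. Strn3, a subunit of the STRIPAK phosphatase complex that opposes the Hippo kinases, fell on HF against NT by 0.14 on the log2 scale (standard error 0.04, adjusted p = 0.0277), a call lost without NT 2, NT 3, NT 4, HF 1, HF 3, HF 4 or HF 5 (highest adjusted p = 0.0868) and with only HF and NT in the fit (adjusted p = 0.0834).

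**Figure D5:**
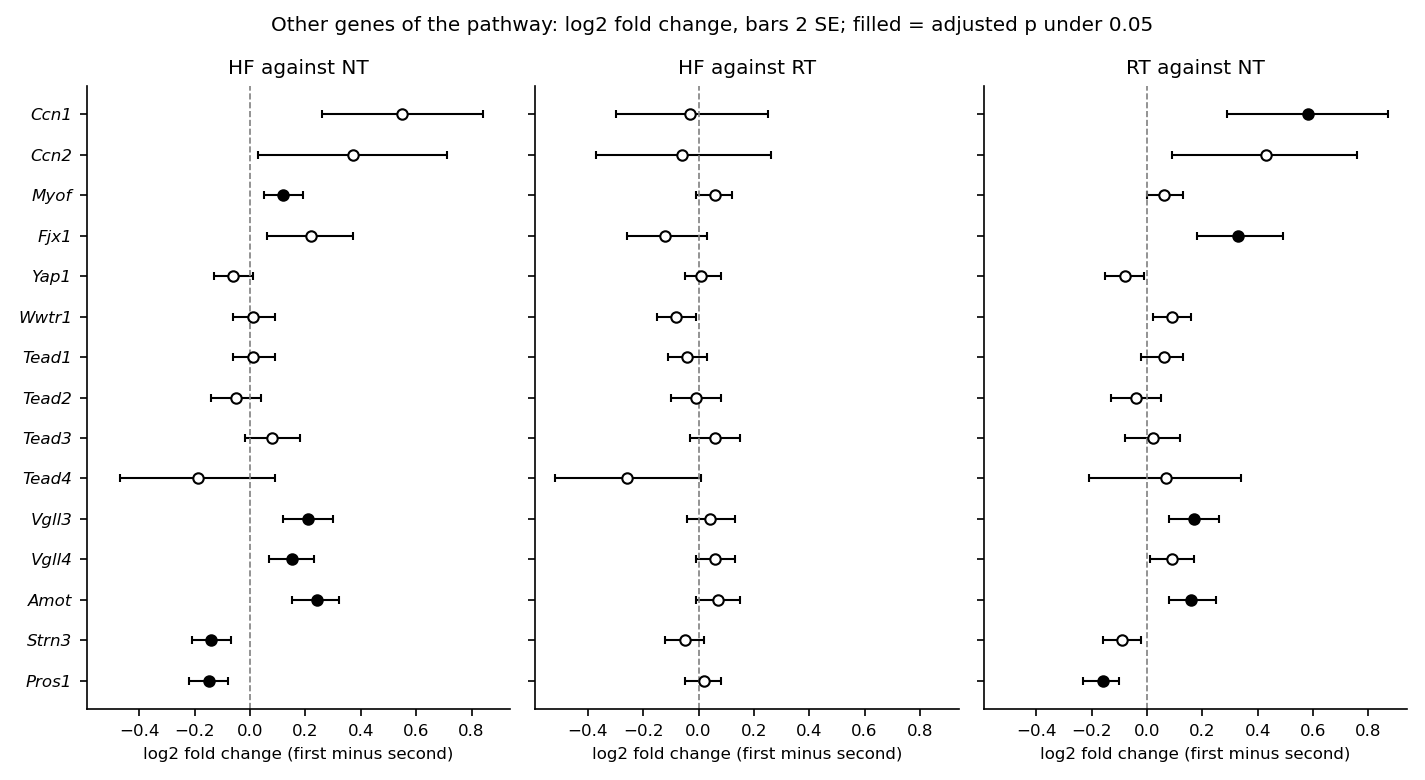
Log2 fold changes of other genes of the pathway in the 3 comparisons, the first named surface minus the second, with bars of 2 SE and filled points at an adjusted p under 0.05. Yap1, Wwtr1 and the 4 TEAD genes are open in every panel, while Vgll3 and Amot are filled for HF against NT and for RT against NT.

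Of the partners of AXL, tissue factor and TGF-beta, 14 were tested. On HF against NT 0 rose and 1 fell, and on RT against NT 0 rose and 1 fell, Pros1 in both. On HF against RT 0 passed, where 0.211% of all genes tested did. Over all genes tested, 1.50% rose and 0.829% fell on HF against NT, and 2.53% rose and 1.44% fell on RT against NT. Pros1 (protein S, a ligand of the AXL family and an anticoagulant) was lower on both textures, at 364 ± 14.0 CPM on HF, 359.7 ± 7.32 CPM on RT and 403 ± 21.2 CPM on NT (SD, n = 6, 6 and 5). It fell by 0.15 on the log2 scale on HF against NT (standard error 0.03, adjusted p = 0.0158) and by 0.16 on RT against NT (standard error 0.03, adjusted p = 0.00347). The HF call ended without NT 2 or NT 3 (highest adjusted p = 0.0695) and with only HF and NT in the fit (adjusted p = 0.0631). Gas6, which encodes the ligand of AXL named above, lay between 2.47 and 5.97 CPM over all libraries and did not pass. Of the coagulation factors that bind tissue factor or act after it, F10 was at 0 in every library and F7 in all but 1.

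Contractile targets of serum response factor (SRF), another readout of actin tension, gave 4 of 14 tested up and 0 down on HF against NT, where 1.50% of all genes rose and 0.829% fell. They gave 0 of 14 on HF against RT, where 0.211% passed, and 7 up and 1 down on RT against NT, where 2.53% rose and 1.44% fell. The 1 that fell was Fhl2, by 0.15 on the log2 scale (standard error 0.04, adjusted p = 0.0313). Acta2 (smooth muscle actin), Vcl (vinculin, of focal adhesions) and SRF's own gene, Srf, rose on both textures, Myl9 (a myosin light chain) on HF and Filip1l on RT. In GENCODE M21, 25.5% of the exonic bases of Vcl lie opposite Ap3m1, from which non-directional libraries cannot tell it. Acta2 averaged 364 ± 42.2 CPM on HF, 363 ± 23.5 CPM on RT and 261 ± 36.7 CPM on NT (SD, n = 6, 6 and 5). With only HF and NT in the fit all 4 HF calls were lost, those of Acta2 (adjusted p = 0.0749), Vcl (0.0557), Myl9 (0.0943) and Srf (0.0648), and limma voom did not call Srf either (adjusted p = 0.0524). Leaving out single libraries ended the HF calls of Vcl (HF 4), Srf (NT 2, NT 3, HF 4 or HF 6) and Myl9 (NT 2, NT 3, NT 4, HF 1, HF 3 or HF 4), with adjusted p up to 0.0578, 0.106 and 0.0979. Whether the YAP and TAZ targets differ from the contractile ones was not tested.

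Few markers of cell types passed. Over all genes tested, 1.50% rose and 0.829% fell on HF against NT, and 2.53% rose and 1.44% fell on RT against NT. On HF against RT 0.211% passed. Of 9 podocyte markers 7 were tested, and 1 of them, Wt1, the transcription factor of podocyte identity, fell on both textures, at 103 ± 5.22 CPM on HF, 96.9 ± 2.96 CPM on RT and 115 ± 3.02 CPM on NT (SD, n = 6, 6 and 5). Its log2 fold change was -0.16 ± 0.04 for HF against NT (standard error, adjusted p = 0.0113) and -0.24 ± 0.04 for RT against NT (standard error, adjusted p = 6.16e-05). The 8 mesangial, pericyte and smooth muscle markers summed to 805 to 879.7 CPM on HF and 774 to 854 CPM on RT, against 677 to 772 CPM on NT. Of the 8, 3 were tested and Acta2 alone passed. Pdgfrb, a defining marker, averaged 478 ± 14.0 CPM on HF, 457 ± 8.15 CPM on RT and 478 ± 16.3 CPM on NT (SD, n = 6, 6 and 5), and Ren1 was at 0 in every library. The 5 fibroblast markers summed to 31.7 to 57.5 CPM on HF and 39.2 to 58.5 CPM on RT, against 19.1 to 39.5 CPM on NT, most of it Col1a1, but 0 of the 3 tested passed (Col1a1 had an adjusted p of 0.255 for HF against NT and 0.134 for RT against NT), and Lum was at 0 in every library but 1. The 8 tubular markers summed to 1285 to 1476 CPM on HF and 1314 to 1447 CPM on RT, against 1259 to 1523 CPM on NT. Most of this sum was Cdh16 and Lrp2, and 0 of the 4 tested passed. Of the 6 parietal epithelial markers, which summed to 881 to 978 CPM on HF and 893 to 957 CPM on RT, against 923 to 998 CPM on NT, 4 were tested. Cldn1 (claudin 1) alone passed, on RT against NT, with a log2 fold change of -0.21 ± 0.05 (standard error, adjusted p = 0.0157) and all RT libraries below all NT libraries. Of all 15196 genes tested, 185 lay wholly lower on RT than on NT in this way. The 8 endothelial markers summed to at most 4.16 CPM and the 6 immune markers to at most 2.93 CPM. The part of these markers in the results was not tested.

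The genes whose pattern over the 17 libraries was most like the mean of the standardised log2 CPM of the 10 members were Slc22a23 and Ston2 (Pearson r = 0.92 each), Lama5 (r = 0.91), Gas2l3 and Hspg2 (r = 0.90 each). After the mean of each surface was taken out, r was 0.85, 0.85, 0.89, 0.78 and 0.82 for these genes in that order. These values were picked as the highest among all genes tested outside the lists and carry no p. They rest on the same libraries, depth and scaling as the members.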

How the data were processed

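Poly-A RNA was sequenced from 17 non-directional, paired libraries, per the labels' protocols. The deposited table holds raw counts per gene and library, made by the authors, with no normalization. The submitters' processing notes name CASAVA, HISAT2 2.0.5, featureCounts 1.5.0-p3 and build GRCm39 without their roles. Annotation release and strand setting are not given in the sources used here. Symbols came from GENCODE M21 and promoters from RefSeq, both on GRCm38, so no position on GRCm39 is given. Of 56748 genes, 52073 had a symbol.

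Genes were kept by filterByExpr (15196), given TMM scaling factors and tested in edgeR 4.0.16 (quasi-likelihood F test, robust, R 4.3.3), with 1 mean for each surface and no block. Tests were two-sided, with Benjamini-Hochberg adjustment over all genes tested and a threshold of 0.05. Each standard error was taken as |log2 fold change| over √F. Values in CPM rest on TMM-scaled totals, and RPKM divide them by exonic length. The test was checked on simulated data. At 14.9 to 24.1 M counts per library, counting error is small for genes with many counts, where the spread between libraries sets the precision. It is larger for genes with few counts, such as Tead4 (62 to 138 counts per library) and Myl9 (39 to 124). DESeq2 1.42.0, limma 3.58.1 (voom), other filters and scalings, the 2 groups alone, a replicate block and leaving out each library were alternatives.

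Members and lists were chosen with earlier results of these data known. The text names all 10 members, Yap1, Wwtr1, Tead1 to Tead4, Ccn1 and Ccn2, up to 4 members of each other list with the smallest p among those past the threshold in a comparison, and 5 genes most like the members in pattern. Marker genes are named as checks. Gas6, F7, F10, Igfbp3, Vgll2, Fhl2, the AP-1 motif and the CArG box were looked at after values were seen.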

Additional observations from a re-analysis of the deposited data

Results flagged for a closer look

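In 30 named genes and 3 surfaces (90 groups), 6 groups had a library whose gap to its nearest neighbour passed Dixon's 95% value for the group size, where chance flags about 1 in 20, or 4.5 of 90. Among the YAP and TAZ targets these were Ankrd1 in NT 1, at 238 CPM with the next library at 317 CPM, and Ptpn14 in NT 5, at 551 CPM with the next at 666 CPM. Among the TEAD genes, Tead2 stood apart in NT 5 at 49.3 CPM and Tead3 in NT 4 at 60.8 CPM, both high. Vcl (vinculin) stood low in NT 5 at 234 CPM, and Fjx1 low in HF 6 at 17.8 CPM. Without NT 1, the log2 fold change of Ankrd1 on RT against NT was 0.27, and it passed. Without HF 6, Fjx1 also passed for HF against NT, at 0.29 (adjusted p = 0.0137).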

How the results depend on the processing

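Of the 8 calls made on YAP and TAZ targets, 46 of 48 values under 6 alternatives and 115 of 136 with 1 library left out stayed on their side of the threshold, and none turned. The count of targets called was 2 to 4 (HF against NT), 0 (HF against RT) and 4 or 5 (RT against NT) under these 6, and with 1 library left out 1 to 3, 0 and 3 to 5. The 354 genes called for HF against NT became 554 with DESeq2, 597 without the filter beyond 1 count and 200 when the fit held those 2 groups alone, and ran from 202 (without NT 3) to 604 (without NT 5). The 32 for HF against RT became 89, 148 and 113 under the same settings, and ran from 14 (without RT 1 or RT 3) to 89 (without HF 3). The 603 for RT against NT ran from 365 (without NT 3) to 806 (without NT 5). The 185 that differed between numbers became 113 with limma voom. Libraries of different surfaces were correlated over all genes tested, after the mean of each surface was taken out of every gene. Same-numbered libraries then correlated by -0.01 to 0.19 and differently numbered ones by -0.13 to 0.06. By these values 8 of 17 libraries matched their own number best, a hint of pairing from the data but not from the labels. The labels state no block, so the main fit did not take the numbers as pairs, and whether they are pairs is not known. With the replicate block the calls were 637, 125 and 995, those on targets stayed 3, 0 and 5, and Ccn1 (adjusted p = 0.0139) and Fjx1 (adjusted p = 0.0423) passed for HF against NT and Filip1l (adjusted p = 0.0163) for HF against RT.

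Values that changed sign were between -0.07 and 0.04 and 0 of them passed. With limma voom, Acta2 was at -0.00 for HF against RT and Ptpn14 at 0.00 for RT against NT, and with the replicate block Tead3 was at -0.00 for RT against NT. With 1 library left out, HF against NT ran from -0.06 to 0.01 for Amotl2, -0.04 to 0.07 for Crim1, -0.03 to 0.05 for Lats2, -0.03 to 0.05 for Wwtr1 and -0.01 to 0.04 for Tead1. HF against RT ran from -0.03 to 0.04 for Amotl2, -0.05 to 0.01 for Ccdc80, -0.06 to 0.01 for Lats2, -0.08 to 0.04 for Ccn1, -0.17 to 0.03 for Ccn2, -0.03 to 0.01 for Tead2 and -0.04 to 0.05 for Acta2. RT against NT ran from -0.06 to 0.01 for Amotl2, -0.06 to 0.02 for Ptpn14, 0.00 to 0.06 for Tead3 and -0.07 to 0.14 for Tead4. The cause was not tested.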
